A study of Mus musculus with 12 samples.

Results

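Histone genes were followed in a mouse breast tumour line by RNA sequencing. The genes were taken from the deposited gene table by name, as the numbered H1, H2A, H2B, H3 and H4 genes of the histone clusters, the older Hist names and the named H1, H2A and H3 variants, which gave 83 of 55492 features. By textbook class and GENCODE biotype, 62 were replication-dependent genes, 8 were replacement genes (H1f0, H1f10, H2aj, H2ax, H2az1, H2az2, H3f3a and H3f3b), 7 were annotated as pseudogenes, 5 were testis or oocyte variants and 1 was the antisense gene H3f3aos. At least 10 counts in at least 3 libraries were present for 43 genes, of which 31 were replication-dependent, 8 replacement, 3 pseudogenes and 1 antisense.

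The cells, CCN6KOT, are labelled as a primary breast cancer line with a spindle metaplastic condition, and the series concerns CCN6 as an antagonist of a WNT, beta-catenin and EZH2 cascade. All 4 groups were transduced with lentivirus, grown in DMEM/F12 with serum and selected with puromycin, and each had 3 libraries of total RNA. The groups were Vector (titled PPGS-Vector, lentivirus Control), DNTCF4 (titled DNTCF4-Vector, Lentivirus-DNTCF4), DNTCF4_EZH2 (Lentivirus DNTCF4-EZH2) and DNTCF4_SET (Lentivirus DNTCF4-SET), so DNTCF4 is shared by 3 of them, and by its title the DNTCF4 group carries a vector in place of EZH2 or SET. DNTCF4 was read as a dominant-negative form of the Wnt transcription factor TCF4, while the labels do not describe the inserts of the EZH2 and SET constructs or the promoters that drive them. All groups came from 1 line, and the labels do not name the culture behind a library, so the p-values measure the spread between libraries, which may be technical.

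Histones package DNA: H2A, H2B, H3 and H4 form the nucleosome core and H1 binds the linker DNA between cores. Replication-dependent histone genes lie in clusters and are made in S phase, when new DNA needs packaging, and their mRNAs end in a stem-loop, bound by SLBP, instead of a poly(A) tail. Replacement histones are made throughout the cell cycle from ordinary polyadenylated mRNAs; H2A.Z (H2az1, H2az2) marks promoters and enhancers, H3.3 (H3f3a, H3f3b) is deposited outside replication, and H2ax mRNA is known in both forms.

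Library totals ran from 23597545 to 33999982 counts, so a gene without a count lay below 0.0882 to 0.127 CPM (counts scaled to a common library size), taking 3 counts as the limit (counting error only). Histone genes held 1856 to 2020 CPM of each library after TMM scaling. DNTCF4 replicate 1 stood apart from its group. Its chi-square per degree of freedom was 20.7 and 13.1 against the other libraries of the group, which differed from each other by 3.33. In DNTCF4_EZH2, replicates 1 and 2 differed by 16.3, and replicate 3 differed from them by 6.33 and 6.09. Several results for histone genes are given with and without DNTCF4 replicate 1 or DNTCF4_EZH2 replicate 2. Genes of the other lists are given with all libraries only. Tcf7l2, which encodes TCF4, was at 8.63 to 13.6 CPM in Vector and at 32.5 to 46.6 CPM in the 9 other libraries; Ezh2 was at 56.5 to 68.8 CPM in Vector and DNTCF4, at 429 to 470 CPM in DNTCF4_EZH2 and at 509 to 574 CPM in DNTCF4_SET. Of the markers of the labelled cell type, Krt8 was present (group means 83 to 87.8 CPM) and the summed mesenchymal markers were high, while Epcam and Cdh1 means did not exceed 1.01 CPM. Leukocyte markers summed to 45.1 to 72.2 CPM, nearly all of it Cd68, with Ptprc means of at most 0.397 CPM, and endothelial and testis germ cell markers summed to at most 4.51 and 0.888 CPM.

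The stem-loop separates the mRNA classes, so it is shown first. A search of the GENCODE M21 transcripts, on the transcript strand, for the letters GG, NN, CTTTT, N, AG, NN and CC in a row (N is any base) found it in 41 of 62 replication-dependent genes (66.1%), in H2ax and in the testis variant H1f6, and in 78 of 21951 protein-coding genes (0.355%) in all. The commonest form, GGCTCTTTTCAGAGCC, was in 25 of the 43 histone genes with a match. The transcript model ended at most 100 bases after the motif in 22 of the 41 genes and ran on further in 19. A gene without a match may have a model that stops before its stem-loop. The model of H4c12, without a match, is 312 bases long, while the motif of H4c6 starts at base 343 of its model. The stem-loops of genes described below follow, 5′ to 3′, with the stem-loop in capitals and up to 5 flanking bases in lower case.
Hist1h2ap: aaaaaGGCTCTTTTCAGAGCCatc
H2ac18: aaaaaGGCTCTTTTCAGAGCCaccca
H1f2: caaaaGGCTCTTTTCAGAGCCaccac
H1f3: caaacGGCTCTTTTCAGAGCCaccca
H2aw: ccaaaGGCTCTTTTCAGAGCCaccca
H3c15: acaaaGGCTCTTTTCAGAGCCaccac
H4c8: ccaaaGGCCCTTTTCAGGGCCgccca
H4c9: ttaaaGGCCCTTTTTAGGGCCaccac
H2ax: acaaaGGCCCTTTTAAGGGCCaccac

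The H1, H2A and H3 genes shown shared the commonest form, and H4c8, H4c9 and H2ax each had a form of their own. The models run on for 3 bases after the stem-loop in Hist1h2ap, 35 in H2ac18, 46 in H4c8, 330 in H4c9, 377 in H3c15, 822 in H2ax, 840 in H1f2, 1643 in H2aw and 4884 in H1f3. The spliced model of H2bc4 (13, 23684199 to 23692908 on GRCm38) lacked the motif. The labels do not say whether library preparation kept RNA without a poly(A) tail; of 12 RNAs known to lack the tail, 7 had no count in any library and the 12 summed to 3.34 to 23.3 CPM.

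Promoters were compared in RefSeq windows of GRCm38.p6 (250 bases before to 50 after the start), which gave 58 windows for 57 of the 62 replication-dependent genes (2 for H2bc6), with each motif searched on both strands. CCAAT was in 86.2% of them against 37.4% of 32851 promoters of all genes, TATAAA in 55.2% against 13.6%, and the octamer ATTTGCAT in 20.7% against 1.74%. The motifs followed histone type: CCAAT was in every H1, H2A, H2B and H3 window but in 27.3% of H4 windows, the octamer was in 35.3% of H2A and 40% of H2B windows and in no other type, and AAACACA, the H1 box, was in 80% of H1 windows against 7.18% of all. CTTTGA, the core bound by TCF proteins, was in 12.1% of replication-dependent windows against 16% of all, and in none of the 7 replacement windows found. The windows of H2ac6 (13, 23683910 to 23684209, minus strand), which also spans the 250 bases up to the divergent H2bc4, of H1f2 (13, 23738557 to 23738856, plus strand) and of H2az1 (3, 137864237 to 137864536, plus strand) are shown because these genes carry the main results. Capitals mark the motifs just named, on either strand.
H2ac6: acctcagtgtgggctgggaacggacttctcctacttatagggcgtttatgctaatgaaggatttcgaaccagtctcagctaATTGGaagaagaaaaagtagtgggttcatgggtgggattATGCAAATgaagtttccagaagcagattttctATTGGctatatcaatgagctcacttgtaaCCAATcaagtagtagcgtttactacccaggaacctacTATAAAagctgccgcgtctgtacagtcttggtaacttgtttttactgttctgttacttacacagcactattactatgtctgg
H1f2: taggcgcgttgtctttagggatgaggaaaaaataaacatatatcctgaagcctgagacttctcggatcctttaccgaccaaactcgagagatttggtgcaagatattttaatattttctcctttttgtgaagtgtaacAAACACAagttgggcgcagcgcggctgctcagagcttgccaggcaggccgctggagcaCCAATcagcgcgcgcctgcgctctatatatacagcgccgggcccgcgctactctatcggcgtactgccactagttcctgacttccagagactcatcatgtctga
H2az1: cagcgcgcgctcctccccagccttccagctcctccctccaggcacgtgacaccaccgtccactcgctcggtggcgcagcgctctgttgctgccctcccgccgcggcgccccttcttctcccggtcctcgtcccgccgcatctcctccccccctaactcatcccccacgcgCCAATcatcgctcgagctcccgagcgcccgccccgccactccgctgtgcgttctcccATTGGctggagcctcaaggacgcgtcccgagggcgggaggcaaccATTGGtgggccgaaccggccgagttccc

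The H2ac6 window held CCAAT on both strands, the octamer and TATAAA, the H1f2 window held CCAAT and the H1 box, and the H2az1 window held CCAAT alone.

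Replication-dependent histone mRNA was lower with DNTCF4. The 62 genes together gave 305, 303 and 287 CPM in the 3 Vector libraries and 152, 177 and 169 CPM in DNTCF4. The groups did not overlap, and the mean fell from 299 ± 10.2 to 166 ± 12.5 CPM (SD, n = 3), a ratio of 0.556. The drop was not carried by a few genes: without H2bc4, H1f2 and Hist1h2ap, which hold 36.3%, 22.7% and 21% of the class's counts, the other 59 genes went from 64.2 ± 3.04 to 34.2 ± 2.66 CPM (ratio 0.533), and the 32 genes too low to test went from 3.52 ± 0.877 to 1.64 ± 0.233 CPM. In bulk RNA, fewer cells in S phase and less histone mRNA per such cell cannot be told apart, and other causes were not tested. Whether RNA without a poly(A) tail was kept is not labelled, so these sums may cover only part of the histone mRNA.

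Of 42 histone genes that passed the low-count filter, 24 fell and 2 rose in DNTCF4 against Vector by edgeR at an adjusted p below 0.05, where 57.5% of 15052 genes were called, 28% lower and 29.5% higher. The 30 replication-dependent genes among them had 20 falls and 0 rises, with a median log2 change of -0.95 against 0.01 over all genes, and 29 of the 30 had a value below 0. A gene can pass the filter through the group where it is high, so this count is not one over the whole class. By type, the falls were 3 of 4 tested H1 genes, 5 of 8 H2A, 5 of 8 H2B, 3 of 4 H3 and 4 of 6 H4, and the summed level per type had ratios of 0.516 (H1), 0.692 (H2A), 0.534 (H2B), 0.388 (H3) and 0.448 (H4).

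**Figure D1:**
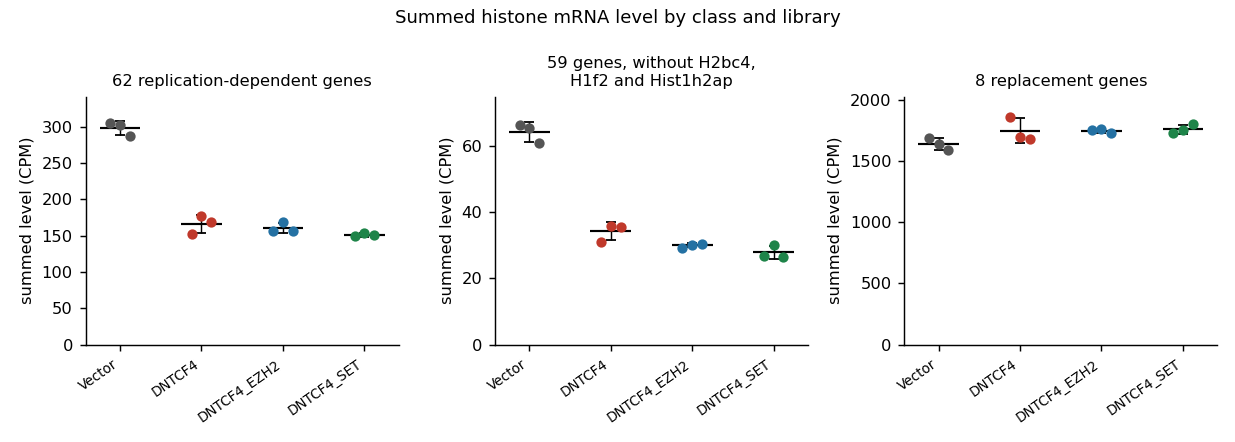
Summed level in CPM (TMM-scaled) in each library (points) with the group mean and SD (bars), for the replication-dependent genes, the same without the 3 most abundant, and the replacement genes. The 9 libraries with DNTCF4 sit between 149 and 177 CPM for the replication-dependent genes, below the 3 Vector libraries at 287 to 305 CPM, while the replacement genes stay between 1595 and 1864 CPM in the 12 libraries.

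Among linker histones, H1f2 (H1.2; 13, 23738808 to 23740367, plus strand) was the most abundant cluster gene of its type. It was at 73.4, 74 and 69.9 CPM in Vector and at 37.2, 38.4 and 38.1 CPM in DNTCF4. The groups were far apart, a 1.91-fold fall (log2 -0.93, SE 0.046, edgeR adjusted p = 1.52e-10). H1f3 (H1.3; 13, 23553262 to 23560686) was at 2.15, 3.33 and 1.97 CPM in Vector and at 0.419, 0.637 and 0.806 CPM in DNTCF4, a 3.98-fold fall (log2 -1.99, SE 0.27, edgeR adjusted p = 1.34e-05).

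Core histones of the H2A and H2B types spanned log2 changes of -1.34 to 0.07 and of -1.48 to -0.07. H2bc4, an H2B gene, was at 113, 117 and 107 CPM in Vector and at 54.8, 63.3 and 58.1 CPM in DNTCF4. No DNTCF4 library came near the Vector ones (log2 -0.93, SE 0.052, edgeR adjusted p = 7.16e-10). Its divergent neighbour H2ac6, which codes for H2A from the other side of the promoter shown above, was at 1.39, 1.63 and 1.3 CPM in Vector and at 1.11, 0.51 and 0.476 CPM in DNTCF4, where replicate 1 was the highest of the 3 (log2 -1.06, SE 0.3, edgeR adjusted p = 0.00645). The 62 genes held 11 such divergent H2A and H2B pairs, 175 to 301 bases apart. In the 5 pairs with both genes tested both values were below 0, as they were in 29 of the 30 tested replication-dependent genes. H2ac12, H2bc12, Hist1h2ao and Hist1h2br of these pairs were not called (edgeR adjusted p = 0.28, 0.136, 0.122 and 0.84).

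Hist1h2ap, an H2A gene (13, 21833026 to 21833507, minus strand), was at 53, 47.3 and 49.7 CPM in Vector and at 29.3, 39.6 and 36.7 CPM in DNTCF4. Its fall was smaller than that of H2bc4 and H1f2 in value (log2 -0.5, SE 0.1, edgeR adjusted p = 0.000623), and the difference between the genes was not tested. Its transcript shares 93.1% of its 50-base windows with other genes, so its level depends on how reads were divided among near-copies. H2ac18, another H2A gene, went from 9.01 ± 0.523 to 4.76 ± 0.187 CPM without overlap (log2 -0.92, edgeR adjusted p = 1.25e-05). Hist1h2bq, an H2B gene, was called at log2 -0.95 (edgeR adjusted p = 0.0192), with adjusted p of 0.0554 to 0.099 without Vector replicate 2 or 3 or DNTCF4 replicate 2 or 3, and of 0.0501 with only the 6 libraries compared. Of the windows of H2ac18 and Hist1h2bq, 89.4% and 97.3% are shared, so the same limit holds for them. H2bc8, an H2B gene, had a log2 change of -1.15 (edgeR adjusted p = 0.0092). H2aw, an H2A gene on chromosome 11 outside the large clusters, and the H2B gene H2bc21 had values near 0 (log2 0.07 and -0.07, edgeR adjusted p = 0.562 and 0.783).

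H3 and H4 genes were low in level, and the 4 tested H3 genes had the lowest median log2 change of the 5 types (-1.38). H3c15 was at 3.54, 3 and 3.15 CPM in Vector and at 0.839, 1.24 and 1.39 CPM in DNTCF4 (2.77-fold lower, edgeR adjusted p = 0.000163). H4c9 was at 13, 12.3 and 10.9 CPM in Vector and at 4.73, 6.5 and 6.6 CPM in DNTCF4 (2.02-fold lower, edgeR adjusted p = 3.24e-06). Neither gene overlapped between groups. H3c4, Hist1h4n, H4c8 and H4c11 also fell, by 2.47-, 3.74-, 2.94- and 1.92-fold. Near-copies abound here, with 63.5% of the windows of H3c15 and 85.6% of those of Hist1h4n shared. Of the tested replication-dependent genes, 13 of 18 with under 50% of windows shared fell (median log2 -0.95). So did 7 of 12 with 50% or more (median -0.96). Of those with under 10% shared, 2 of 5 fell (median -0.52). Over all genes, 28% were called lower. The part of shared reads in the falls was not tested.

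Replacement histones overlapped in total between the groups, while single genes rose or fell. Their sum was 1642 ± 48.2 CPM in Vector and 1750 ± 98.9 CPM in DNTCF4. H2az1, which codes for H2A.Z.1 (3, 137864487 to 137866922), was at 248, 232 and 223 CPM in Vector and at 535, 463 and 456 CPM in DNTCF4. Every DNTCF4 library was far above Vector, a 2.07-fold rise (log2 1.05, SE 0.054, edgeR adjusted p = 2.93e-10) that was called in each of the 19 alternatives run. Of the 50-base windows of H2az1, 33.2% are shared with other genes. H2az2, which codes for H2A.Z.2, was at 71.3, 70.7 and 62.3 CPM in Vector and at 60.5, 63.6 and 64.3 CPM in DNTCF4, with overlap (log2 -0.12, edgeR adjusted p = 0.0687; called lower with the filter of 10 counts in 3 libraries, adjusted p = 0.0331, and without Vector replicate 3, adjusted p = 0.00697).

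H2ax, whose product is phosphorylated at DNA breaks and whose mRNA carries the stem-loop, was at 43.1, 48.3 and 42.1 CPM in Vector and at 23.3, 33.2 and 27.3 CPM in DNTCF4. The groups did not overlap, and its 1.59-fold fall (log2 -0.67, SE 0.094, edgeR adjusted p = 2.2e-05) was the deepest of the 8 replacement genes in value. The 2 H3.3 genes differed: H3f3b fell from 628 ± 14.1 to 524 ± 25.9 CPM (log2 -0.26, SE 0.038, edgeR adjusted p = 2.47e-05), and H3f3a was at 379 ± 10.2 and 398 ± 37.9 CPM (log2 0.07, edgeR adjusted p = 0.269), with DNTCF4 replicate 1 at 442 CPM above its other libraries at 378 and 375 CPM. H1f0, the linker histone of resting and differentiated cells, fell from 207 ± 5.79 to 179 ± 3.51 CPM without overlap (log2 -0.21, edgeR adjusted p = 0.000109). H2aj, an H2A variant, had a small fall with overlap (log2 -0.16, edgeR adjusted p = 0.0265; 0.0551 to 0.204 without Vector replicate 1 or 2, DNTCF4 replicate 1, DNTCF4_EZH2 replicate 1 or DNTCF4_SET replicate 1, and 0.0724 with only the 6 libraries compared), and H1f10 was at 11.2 and 11.8 CPM (edgeR adjusted p = 0.552).

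**Figure D2:**
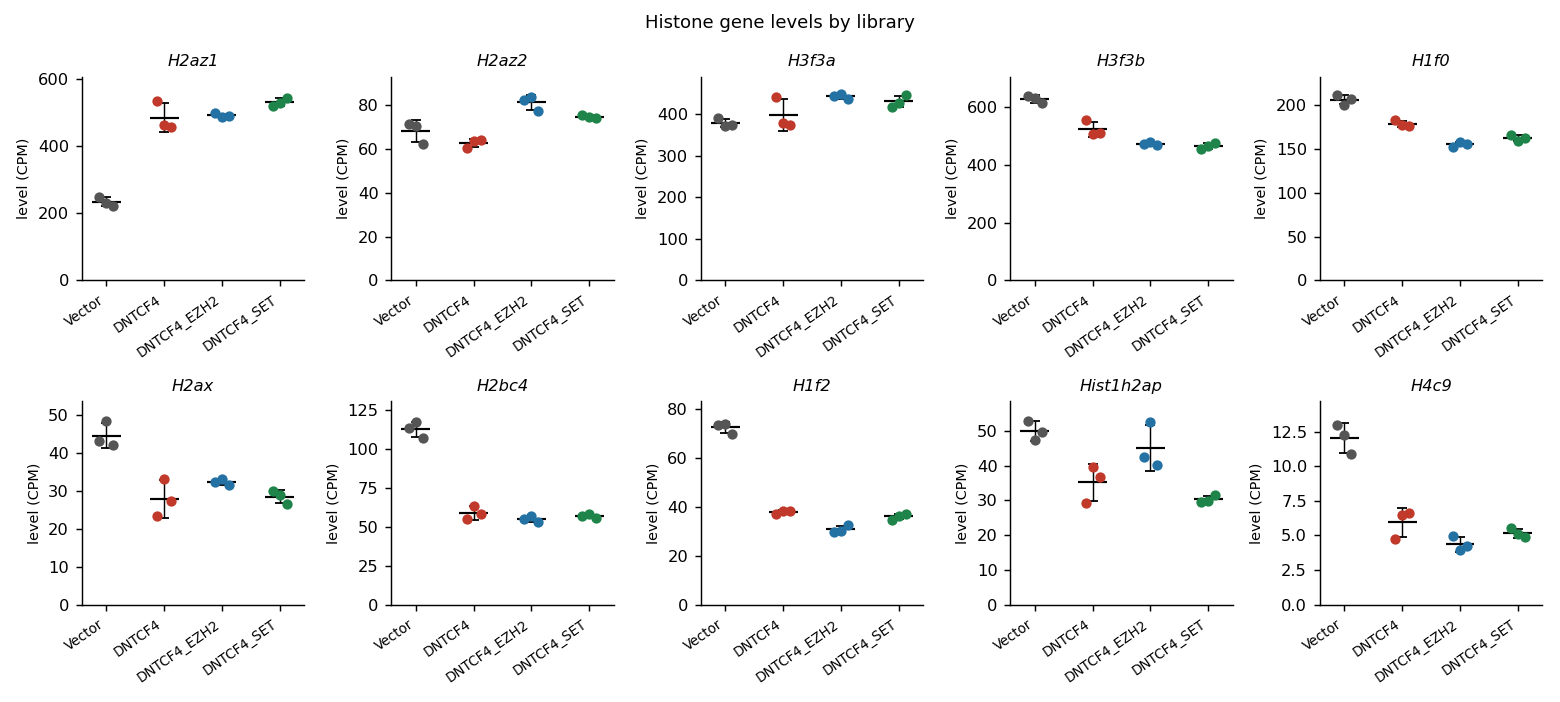
Level in CPM (TMM-scaled) of 10 histone genes in each of the 12 libraries (points) with the group mean and SD (bars), each axis starting at 0. H2az1 lies at 456 to 545 CPM in the 9 libraries with DNTCF4 against 223 to 248 CPM in Vector, while H2bc4 lies at 53.2 to 63.3 CPM against 107 to 117 CPM.

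Per kilobase of merged exon, the mean level over the 12 libraries was 245 CPM per kb for H2az1, 176 for H3f3b, 118 for H3f3a and 85.6 for H1f0. Cluster genes reached 83.3 CPM per kb in Hist1h2ap, 61.1 in H2bc4 and 28.4 in H1f2, and H4c9 and H2ac18 were at 9.47 and 9.15. The 3 leading cluster genes thus belong to 3 different kinds of model: one that ends at the stem-loop, one without the motif and one that runs past it. The 22 genes whose model ends within 100 bases of the stem-loop gave a sum of 69.5 ± 3.17 CPM in Vector, which was 44.2 ± 6.55 CPM with DNTCF4. The 19 with longer models went from 107 ± 3.46 to 56.4 ± 2.06 CPM, and the 21 whose model lacks the motif from 122 ± 5.49 to 65.3 ± 4.31 CPM. The 3 kinds were each lower in DNTCF4 without overlap.

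**Figure D3:**
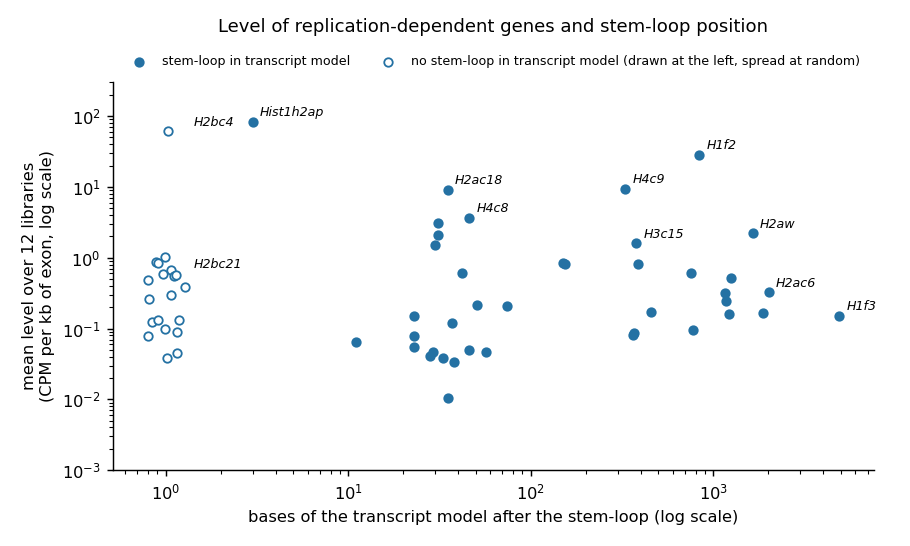
Mean level over the 12 libraries (CPM per kb of merged exon, log scale) of the replication-dependent genes with a count, against the bases by which the GENCODE transcript model runs past the stem-loop (log scale). Hist1h2ap (3 bases past the stem-loop), H2bc4 (no stem-loop in its model) and H1f2 (840 bases past) are the highest, at 83.3, 61.1 and 28.4 CPM per kb.

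Among genes for histone mRNA and histone deposition, more rose than fell. Of 22 genes for histone mRNA transcription, processing or decay (the processing genes below), 13 rose and 3 fell in DNTCF4 against Vector. Their median log2 change was 0.19. SLBP binds the stem-loop, and its mRNA was at 88.7, 80.7 and 81.1 CPM in Vector and at 126, 103 and 103 CPM in DNTCF4 (1.33-fold higher, edgeR adjusted p = 0.000106). Npat, the cyclin E-CDK2 target that drives histone transcription, rose 1.21-fold and Cdk2 itself 1.28-fold. Hinfp, the H4 promoter factor, rose 1.33-fold, and of the genes for histone mRNA decay, Tut4 rose 1.95-fold and Upf1 1.35-fold.

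Of 29 histone chaperones and deposition factors, 13 rose and 3 fell (median 0.12), led by Tonsl (1.63-fold) and with Nasp, which holds soluble H3 and H4, at 71.7, 74.7 and 76.4 CPM in Vector and 106, 92 and 91 CPM in DNTCF4. Hira, which deposits H3.3, rose 1.16-fold and Rbbp4 1.15-fold. Of 31 S phase and G1/S genes, 15 rose and 1 fell (median 0.12): the helicase genes Mcm4, Mcm7 and Cdc45 rose 1.27-, 1.22- and 1.34-fold, Uhrf1 rose 1.2-fold and Rrm2 fell 1.15-fold. These shares stand beside 29.5% of all genes called higher. The lists overlap: Slbp, Ccne1 and Ccne2 are processing and S phase genes, and Mcm2 and Chaf1a are in the chaperone and S phase lists. The summed S phase list was at 1862 to 1880 CPM in Vector and 2037 to 2117 CPM in DNTCF4, so it was higher where the replication-dependent genes were lower.

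**Figure D4:**
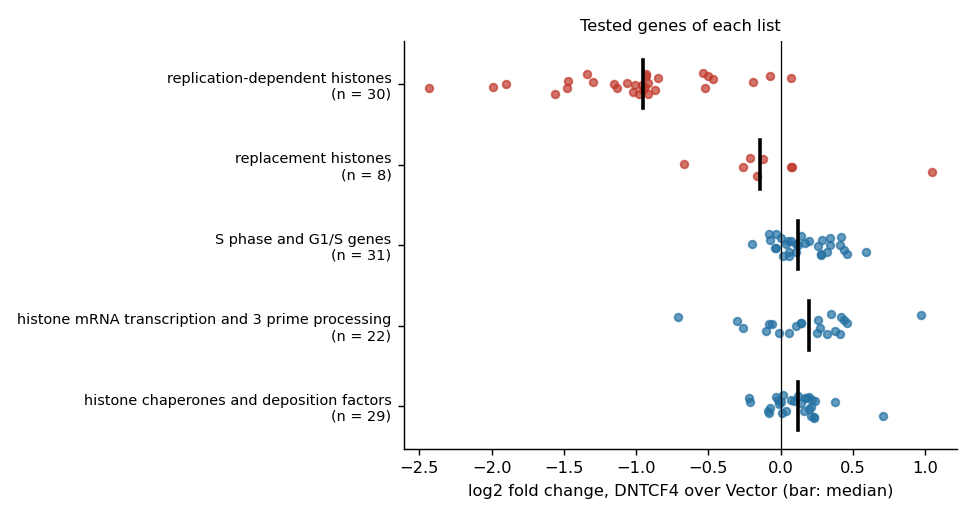
Log2 fold change of DNTCF4 over Vector for each tested gene (points) of 5 lists, with the list median (black bar). The replication-dependent histones have a median of -0.95, against 0.12 for S phase genes, 0.19 for processing genes and 0.12 for chaperones.

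The 9 summed mesenchymal markers were at 11184 to 12130 CPM in Vector and 4719 to 5266 CPM in DNTCF4, moving with the replication-dependent genes. Fn1 made up most of the sum, at 8722 and 3861 CPM; 6 of the 8 markers tested fell, while Prrx1 rose from 19.8 to 87.4 CPM and Cdh2 was not called. Their part in the result was not tested. The RNAs without a poly(A) tail overlapped between these groups, with sums of 3.48 to 6.9 CPM for Vector and 3.82 to 4.77 CPM for DNTCF4.

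Adding the EZH2 construct to DNTCF4 left most genes uncalled, histone genes among them. The replication-dependent sum was 157, 169 and 156 CPM in DNTCF4_EZH2, overlapping the 152, 177 and 169 CPM of DNTCF4. In DNTCF4_EZH2 against DNTCF4, 3 histone genes rose and 7 fell of 42 tested, 5 of the falls in replication-dependent genes, where 25.5% of all genes were called, 13% higher and 12.5% lower. The median log2 change of the 30 tested replication-dependent genes was -0.14, against 0 for all genes. Without DNTCF4_EZH2 replicate 2, 4 histone genes of 45 tested were called, beside 18.3% of all genes. Without DNTCF4 replicate 3, 6 of 45 were, beside 20.7%. Without DNTCF4 replicate 1, 14 of 45 were, 5 higher and 9 lower, beside 28.6%.

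H1f2 fell further, from 37.2, 38.4 and 38.1 CPM in DNTCF4 to 29.9, 30 and 32.4 CPM (log2 -0.3, SE 0.048, edgeR adjusted p = 0.000255). H2bc4 was at 54.7, 56.7 and 53.2 CPM in DNTCF4_EZH2, within reach of DNTCF4 (log2 -0.1, edgeR adjusted p = 0.189; 0.02 without DNTCF4 replicate 1). H2aw fell from 5.52 to 4.27 CPM without overlap (log2 -0.37, edgeR adjusted p = 0.0161; 0.0639 without DNTCF4_EZH2 replicate 2 and 0.0524 by the DESeq2 Wald test). H4c9 was called lower with overlap (log2 -0.44, edgeR adjusted p = 0.0224), and had an adjusted p of 0.0737 to 0.0989 without DNTCF4 replicate 2 or 3 or DNTCF4_EZH2 replicate 2 or 3, and of 0.0725 with only the 6 libraries compared.

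Hist1h2br, an H2B gene, was called lower on few reads (log2 -2.74, SE 0.95, edgeR adjusted p = 0.0459). It was at 0, 1.34 and 1.87 CPM in DNTCF4 and at 0.264, 0.196 and 0 CPM in DNTCF4_EZH2, so DNTCF4 replicate 1 lay with the other group. Its adjusted p ran from 0.0554 to 0.189 when any 1 Vector or DNTCF4_EZH2 library, DNTCF4 replicate 2 or 3, or DNTCF4_SET replicate 2 was left out. It was 0.227 by the DESeq2 Wald test and 0.0827 by limma on the rlog values, and 88.5% of its windows are shared.

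Hist1h2ap rose, from 29.3, 39.6 and 36.7 CPM in DNTCF4 to 42.6, 52.5 and 40.1 CPM in DNTCF4_EZH2 (log2 0.35, SE 0.1, edgeR adjusted p = 0.0188). Replicate 2 of DNTCF4_EZH2 was the highest, and without it the value was 0.23 (adjusted p = 0.112); with only the 6 libraries compared the adjusted p was 0.0765. The same library was the highest of the 12 for RNAs without a poly(A) tail: Rn7sk was at 2.93, 18.3 and 8.83 CPM in DNTCF4_EZH2 and at 2.89 to 5.35 CPM in the other 9 libraries. Their part in the rise was not tested. The 22 genes whose model ends at the stem-loop, most of whose reads are from Hist1h2ap, summed to 50.4, 61.1 and 48.3 CPM in DNTCF4_EZH2, and the 19 with longer models to 45.7, 45.3 and 49.1 CPM against 54.1, 57.6 and 57.7 CPM in DNTCF4.

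Among the replacement genes, H2az2 rose from 60.5, 63.6 and 64.3 CPM in DNTCF4 to 82.7, 84 and 77.4 CPM in DNTCF4_EZH2. These libraries did not overlap (log2 0.37, SE 0.052, edgeR adjusted p = 8.19e-05). H2az1 was at 498, 487 and 490 CPM, inside the range of DNTCF4 (log2 0.02, edgeR adjusted p = 0.818; 0.1 and 0.0453 without DNTCF4 replicate 1). H1f0 fell to 156 ± 2.7 CPM (log2 -0.2, edgeR adjusted p = 0.000527) and H3f3b to 473 ± 5.25 CPM (log2 -0.15, edgeR adjusted p = 0.00966). H3f3a was called higher, at 443 ± 5.89 CPM, with overlap (log2 0.15, edgeR adjusted p = 0.041), but had an adjusted p of 0.0527 to 0.139 without Vector replicate 3, DNTCF4 replicate 2 or 3, any DNTCF4_EZH2 library or DNTCF4_SET replicate 2, and of 0.111 with only the 6 libraries compared. H2ax was at 32.3, 33 and 31.5 CPM (log2 0.2, edgeR adjusted p = 0.135; 0.0136 with no filter, and log2 0.35 with 0.00355 without DNTCF4 replicate 2).

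Of the 22 processing genes, 0 rose and 3 fell (Cpsf2, Srrt and Tut7), where 13% of all genes were called higher and 12.5% lower. Slbp and Npat were not called (log2 -0.15 and -0.05). Of the 29 chaperones 3 rose and 8 fell: Daxx, which deposits H3.3, fell 1.38-fold and Nasp 1.12-fold, while Ep400 and Hjurp rose 1.15- and 1.19-fold. Of the 31 S phase genes 3 rose and 2 fell, with Pole and Rrm2 up 1.24- and 1.18-fold. Hjurp is the chaperone of the centromeric histone CENP-A, whose gene Cenpa, outside the 83, rose from 47.8, 47 and 48.2 CPM in DNTCF4 to 71.2, 68.4 and 70 CPM (1.47-fold, edgeR adjusted p = 4.14e-07).

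**Figure D5:**
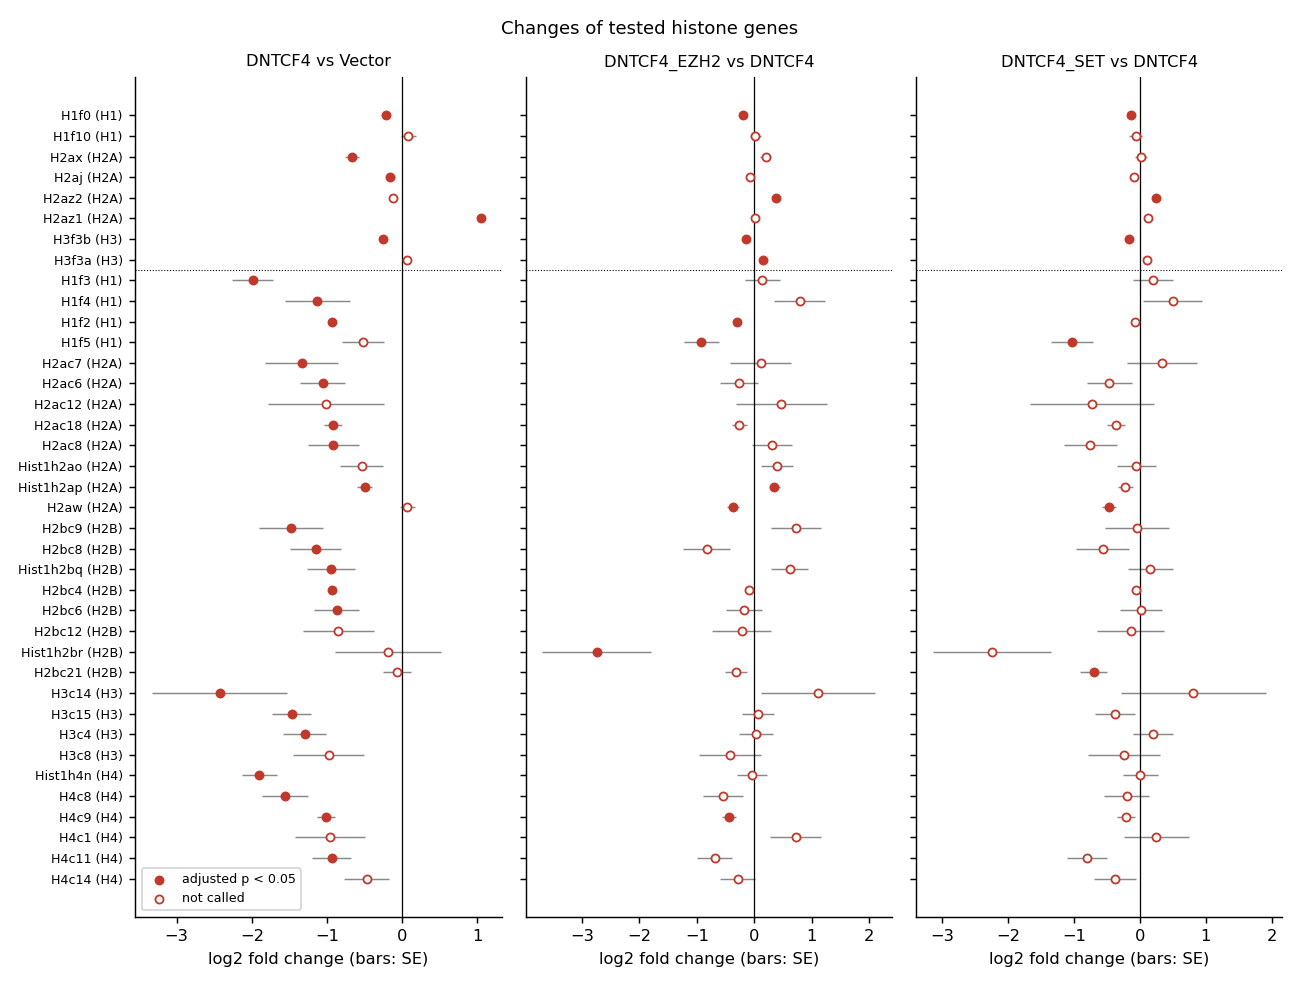
Log2 fold change with its SE for the 38 replacement (above the dotted line) and replication-dependent genes tested, in 3 comparisons; filled points have an edgeR adjusted p below 0.05. In DNTCF4 against Vector the replication-dependent points lie to the left of 0, except H2aw at 0.07, while in the comparisons of DNTCF4_EZH2 and DNTCF4_SET with DNTCF4, which share the DNTCF4 libraries, they lie on both sides.

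DNTCF4_SET was compared with the same DNTCF4 libraries, so the results of the 2 comparisons are not independent. The replication-dependent sum was 149, 154 and 151 CPM, against 152, 177 and 169 CPM, so that only DNTCF4 replicate 1 reached the range of DNTCF4_SET. In DNTCF4_SET against DNTCF4, 1 histone gene rose and 5 fell of 42 tested, 3 of the falls in replication-dependent genes, where 26% of all genes were called, 12.7% higher and 13.3% lower. The median log2 change of the tested replication-dependent genes was -0.2, against 0 for all genes. Without DNTCF4 replicate 1, 13 histone genes of 45 tested were called, 3 higher and 10 lower, and 30.9% of all genes were called in that fit.

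H2aw fell from 5.91, 5.41 and 5.24 CPM in DNTCF4 to 3.9, 4.51 and 3.61 CPM (log2 -0.47, SE 0.11, edgeR adjusted p = 0.00452). H2bc21 fell from 1.91, 1.56 and 1.98 CPM to 1.32, 1.02 and 1 CPM (log2 -0.7, SE 0.2, edgeR adjusted p = 0.0192; 0.0591 by the DESeq2 Wald test and 0.0648 to 0.0723 without DNTCF4 replicate 3 or DNTCF4_SET replicate 2 or 3). Both genes were near 0 change in DNTCF4 against Vector. H1f5, an H1 gene with a mean under 1 CPM in these groups, named after its values were seen, was called lower in DNTCF4_EZH2 (0.395 CPM) and DNTCF4_SET (0.358 CPM) against DNTCF4 (0.74 CPM). H2bc4, H1f2 and Hist1h2ap were at 57 ± 1.19, 36.1 ± 1.15 and 30.3 ± 0.996 CPM and were not called (edgeR adjusted p = 0.574, 0.294 and 0.149), although Hist1h2ap was called lower with no filter on low counts (adjusted p = 0.00446) and without DNTCF4 replicate 1 (log2 -0.33, adjusted p = 0.00457).

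H2az2 rose to 75.6, 74.7 and 74.1 CPM, above each DNTCF4 library (log2 0.25, SE 0.052, edgeR adjusted p = 0.00242). H2az1 was at 521, 528 and 545 CPM, with DNTCF4 replicate 1 at 535 CPM inside that range (log2 0.13, edgeR adjusted p = 0.0805); it was called higher with DESeq2 size factors (adjusted p = 0.0439), by the DESeq2 Wald test (0.0383), with no filter on low counts (0.0205) and without DNTCF4 replicate 1 (log2 0.21, adjusted p = 0.000136). H3f3a was called higher without that library (log2 0.19, adjusted p = 9.38e-05). H1f0 and H3f3b fell to 163 ± 3.53 and 465 ± 11.8 CPM (log2 -0.14 and -0.17, edgeR adjusted p = 0.00874 and 0.00379; 0.0607 for H1f0 with only the 6 libraries compared).

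Of the 22 processing, 29 chaperone and 31 S phase genes, 0, 2 and 0 rose and 7, 8 and 8 fell in DNTCF4_SET against DNTCF4. Over all genes, 12.7% were called higher and 13.3% lower. Srrt, which links the cap to histone mRNA processing, fell 1.33-fold, Hinfp 1.18-fold, Daxx 1.32-fold and Mcm6 1.25-fold, while Ep400 rose 1.22-fold. Slbp was not called (log2 -0.18, edgeR adjusted p = 0.0605), Npat was at 0.01, and Nasp fell 1.13-fold. Cenpa rose 1.28-fold.

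Between DNTCF4_EZH2 and DNTCF4_SET, 2 histone genes were called, where 5.16% of all genes were, 3% higher and 2.17% lower. Hist1h2ap was higher in DNTCF4_EZH2 in each library, 42.6, 52.5 and 40.1 CPM against 29.7, 29.8 and 31.5 CPM (log2 0.57, SE 0.1, edgeR adjusted p = 0.00427), and the call stood without DNTCF4_EZH2 replicate 2. H1f2 was lower, 29.9, 30 and 32.4 CPM against 34.8, 36.4 and 37 CPM (log2 -0.23, SE 0.048, edgeR adjusted p = 0.0104; 0.0522 to 0.0685 without DNTCF4_EZH2 replicate 1 or 2 or DNTCF4_SET replicate 2 or 3). The most abundant H2A and H1 cluster genes thus differed in opposite directions, and H2bc4 was not called (log2 -0.05, edgeR adjusted p = 0.64). Of the 22 processing, 29 chaperone and 31 S phase genes, 3, 2 and 4 were higher and 1, 0 and 0 lower in DNTCF4_EZH2. Those higher included Srrt and Cstf2 (1.18- and 1.19-fold) and Pole and Rrm2 (1.19- and 1.17-fold).

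With neither construct did the replication-dependent sum reach the range of Vector: its ratio to Vector was 0.538 in DNTCF4_EZH2 and 0.507 in DNTCF4_SET, beside 0.556 in DNTCF4. For 14 of 30 tested replication-dependent genes (46.7%), all 9 libraries with DNTCF4 lay below the 3 Vector libraries, where 22% of all genes tested did, and for none did all 9 lie above, where 22.1% did. The 14 were H1f2, H1f3, H2ac6, H2ac18, H2bc4, H2bc8, H2bc9, H3c4, H3c8, H3c15, H4c8, H4c9, H4c11 and Hist1h4n. A low gene can pass the filter mainly through Vector, so this share is not one over the whole class. H2bc9 had 10, 13 and 13 counts in Vector and 3 to 11 in the 9 other libraries. H3c8 had 17, 12 and 11 against 2 to 11. Of the 8 replacement genes, H1f0, H2ax and H3f3b lay below in all 9 and H2az1 above. These are levels side by side, since neither group was tested against Vector.

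The remaining members gave few reads. Of the 5 testis or oocyte variants, 4 had no count and the fifth, H1f6, was at no more than 0.074 CPM in any library. Across the 83 genes, 8 had no count in the 12 libraries and 19 had fewer than 10 in all. The 3 pseudogenes tested, Hist1h2al, H3f3a-ps2 and H3f3c, were not called in any of the 4 comparisons. H3f3aos, antisense to H3f3a, was at 0.678, 0.407 and 0.881 CPM in Vector and at 1.11, 1.5 and 1.14 CPM in DNTCF4 (log2 0.95, SE 0.29, edgeR adjusted p = 0.0104; 0.0527 without Vector replicate 2 and 0.0521 without DNTCF4 replicate 2). Its span shares 168 bases with that of H3f3a on chromosome 1, and the labels do not say whether strand was used in counting, so reads from those bases cannot be told apart. Outside the 83, the variant gene Macroh2a1 was at 108 CPM in each Vector library and at 84.1, 87.3 and 86 CPM in DNTCF4 (1.26-fold lower, edgeR adjusted p = 1.45e-06).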

How the data were processed

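The deposited expected counts, made by the authors per gene and not normalised, were whole numbers already; per the submitters' processing notes the tools were RSEM 1.3.3, STAR 2.7.8a, cutadapt 2.3, FastQC 0.11.8 and DESeq2 (no version given) on GRCm38. RSEM divides reads that match several genes, so near-identical histone genes depend on that model. The deposited log2 values are DESeq2 rlog values of the authors and served as an alternative only. The labels do not name the annotation release behind the counts.

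Genes were filtered with filterByExpr (minimum count 10, minimum total 15), leaving 15052, and tested with edgeR 4.0.16 in R 4.3.3: TMM scaling, 1 quasi-likelihood fit over 12 libraries with a mean per group, two-sided, Benjamini-Hochberg adjustment over all genes, threshold 0.05. Levels are TMM-scaled CPM. The 4 groups shared 8 residual degrees of freedom and a coefficient of variation of 5.17%. The fit was tested on simulated data. Stem-loops and 50-base windows shared between genes were read from GENCODE M21 transcripts.

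Alternatives were DESeq2 1.42.0 (size factors and Wald test), limma 3.58.1 on rlog values, other filters, a replicate block, the 6 libraries compared, and each library left out. The members, lists and tests were chosen with earlier results of these data known. Named genes are, per comparison, up to 10 rises and 10 falls of called members with at least 1 CPM, the replacement genes, the 3 most abundant genes of each type, up to 4 genes of each other list by p, and Slbp, Npat and Nasp; a few others are named to fill out a group.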

Additional observations from a re-analysis of the deposited data

How the results depend on the processing

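Counts of called histone genes were 26 in DNTCF4 against Vector (21 to 30 over the alternatives), 10 when DNTCF4_EZH2 was set against DNTCF4, 6 when DNTCF4_SET was, and 2 in the comparison of DNTCF4_EZH2 with DNTCF4_SET. Each main count was of 42 tested, beside 57.5%, 25.5%, 26% and 5.16% of all genes. Over the alternatives of the first, 34.7% to 59.2% of all genes were called. With only the 6 libraries compared, the second became 5 of 35 tested, beside 18.1% of all genes, and the fourth 5 of 34, beside 15%. With no filter on low counts the third became 10 of 75, beside 13.8%. Leaving out each library in turn gave 22 to 28, 4 to 14, 4 to 13 and 1 to 3. In those fits 51.6% to 59.2%, 17.6% to 28.6%, 18.6% to 30.9% and 2.29% to 12.6% of all genes were called. The lowest value of the second came without DNTCF4_EZH2 replicate 2 (6 without DNTCF4 replicate 3). The highest of the second and of the third came without DNTCF4 replicate 1. For the fourth the count was 1 without DNTCF4_EZH2 replicate 1 or 2 or DNTCF4_SET replicate 2 or 3, beside 2.29% to 2.62% of all genes. The causes of these moves were not tested, beyond the fewer libraries or the added genes that each alternative has by construction.

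The replicate numbers did not pair the libraries: 1 of 18 same-numbered pairs had a correlation of deviations over 0.1 (range -0.09 to 0.15, against -0.17 to 0.15 for other pairs), and 0 libraries correlated best with their own number. With the replicate block the counts were 26, 8, 7 and 2, beside 57%, 24.7%, 24.8% and 4.24% of all genes.

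Single genes were followed under the alternatives for 25 histone genes, and none of them reversed direction where it was called. Genes of the other lists, H2ac18 and H1f5 were not among the 25. Of 475 gene values under alternatives in DNTCF4 against Vector, 460 kept direction and call; this held for 437 of 474, 458 of 475 and 462 of 470 in the other comparisons, in the order above. The ratio of the replication-dependent sum in DNTCF4 to Vector was 0.556 with TMM, 0.554 with DESeq2 size factors and 0.547 with library totals. For the 30 genes that passed the filter it was 0.557 with TMM. Genes under 1 CPM rest on few reads, and near-copies on how reads were divided.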
